A study of Mus musculus with 7 samples.

Results

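The 7 cardiac and pharyngeal T-box genes Tbx1, Tbx2, Tbx3, Tbx4, Tbx5, Tbx18 and Tbx20 were examined in ATAC-seq peak lists of sorted cells from the second heart field (SHF) region of mouse embryos at embryonic day 9.5. Each gene was taken with its body and 50 kb on either side in the GRCm38 genome, and all peaks that the authors deposited in these windows were used. The windows are 7 of 26180 curated genes and held 1108 peaks of 1576862 peaks in all libraries. ATAC-seq inserts sequencing adapters with a transposase into accessible DNA, so that a peak marks a stretch where insertions are more frequent than in its surroundings. The GFP+ cells (2 libraries, replicates 3 and 4) and GFP- cells (2 libraries, replicates 1 and 2) came from embryos carrying the Hoxb1-GFP allele, whose fluorescent protein is made where Hoxb1 is active, chiefly in the posterior SHF. The Tomato+ cells (2 libraries, replicates 6 and 8) and Tomato- cells (1 library, replicate 7) came from Mef2c-Cre;RosatdT embryos, in which an enhancer of Mef2c that is active in the SHF drives Cre, and Cre switches on a permanent red label in those cells and in all their descendants. Embryos of a genotype were pooled before the sort. The study's text calls its replicates biological, while a figure legend on these profiles speaks of technical and biological replicates. The labels do not say of which kind a library is or which pool it came from. The p-values measure the spread between these libraries. Population and mouse line cannot be told apart in the comparison of GFP+ with Tomato+ cells.

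T-box proteins are transcription factors that share a DNA-binding domain, the T-box, and differ in whether they activate or repress their targets. Tbx1 acts in the pharynx and in the anterior SHF that builds the outflow tract, and its loss is a main cause of the heart defects of DiGeorge syndrome. Tbx5 acts in the posterior SHF, the atria, the venous pole and the forelimb, and is mutated in Holt-Oram syndrome. Tbx2 and Tbx3 repress the working muscle program in the atrioventricular canal and the conduction system, Tbx18 marks the epicardium and the sinus venosus, Tbx20 is needed in heart muscle and endocardium, and Tbx4 is known for the hindlimb and the lung.

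The libraries held between 187914 and 291287 peaks each and between 52340120 and 93074895 tags. The list of GFP+ replicate 3 was the longest, so counts of peaks are given below also per 100000 peaks of the list. The libraries fell into 2 sets by how often a pair listed peaks with the same start and end. Both GFP+ libraries and Tomato+ replicate 6 formed the first, and Tomato+ replicate 8, both GFP- libraries and the Tomato- library the second, with 321 to 452 identical peaks for a pair within a set and 13 to 29 across the sets. The correlation of log2 fold enrichment across 34032 shared regions was 0.825 to 0.899 within and 0.829 to 0.879 across the sets. Set and sort cannot be told apart in the comparison of GFP+ with GFP- cells, so values within the first set are given beside the results on GFP+ and Tomato+ cells. Only the Tomato+ cells have a library in both sets. The fit with the set as a term, named with the region tests, therefore takes the set from the difference of Tomato+ replicates 6 and 8. It cannot tell the set from a single replicate, and the part of the set in any result was not tested. The header kept with Tomato+ replicate 6 carries a run name with the letters YFP, and its label was followed. Promoters of 5 genes of the heart and SHF (Isl1, Nkx2-5, Mef2c, Gata4, Hand2) all had a peak with q of 0.01 or less in at least 1 library, and 2 had one in all 7. Of 5 blood genes, 2 had such a promoter peak in any library and 0 in all 7, whereas 3 of 5 neural tube genes and 1 of 5 endothelial genes had one in all 7. Of 3 neural crest and 4 endoderm genes, 2 each had one in any library and 0 in all 7. Over 21000 genes, 53.1% had such a promoter peak in all 7.

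The promoter sequences show how far peaks reached into the DNA just before the start sites. RefSeq promoters (GRCm38.p6) were at hand for 4 of the 7 genes, and 250 bases before a start site are given on the strand of the gene. Capitals mark bases that lay inside a deposited peak in all 7 libraries. Tbx20 and Tbx18 are shown as the promoters covered in every library, and Tbx1 and the downstream start site of Tbx4 as those that were not. The sequence at the upstream start site of Tbx4 was not at hand, and the region there had a peak in all 7 libraries.
Tbx20 (chr9:24774304-24774553, minus strand): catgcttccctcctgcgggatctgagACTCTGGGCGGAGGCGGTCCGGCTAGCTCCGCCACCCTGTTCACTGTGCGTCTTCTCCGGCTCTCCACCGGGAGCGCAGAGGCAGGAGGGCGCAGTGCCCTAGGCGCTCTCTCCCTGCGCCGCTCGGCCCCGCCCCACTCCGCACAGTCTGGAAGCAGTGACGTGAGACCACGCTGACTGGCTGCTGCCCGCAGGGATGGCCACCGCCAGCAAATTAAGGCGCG
Tbx18 (chr9:87731261-87731510, minus strand): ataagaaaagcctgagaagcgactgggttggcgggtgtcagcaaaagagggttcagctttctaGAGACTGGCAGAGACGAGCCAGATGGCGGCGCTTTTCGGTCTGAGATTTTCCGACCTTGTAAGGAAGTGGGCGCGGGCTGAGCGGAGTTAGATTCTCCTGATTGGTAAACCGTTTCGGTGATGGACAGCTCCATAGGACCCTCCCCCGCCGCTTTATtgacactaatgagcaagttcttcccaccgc
Tbx1 (chr16:18588900-18589149, minus strand): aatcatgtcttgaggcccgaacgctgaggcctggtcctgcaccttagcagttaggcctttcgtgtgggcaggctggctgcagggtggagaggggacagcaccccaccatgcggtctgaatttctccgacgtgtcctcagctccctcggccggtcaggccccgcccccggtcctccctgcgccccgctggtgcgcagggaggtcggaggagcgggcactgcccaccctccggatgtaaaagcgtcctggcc
Tbx4, downstream start site (chr11:85896515-85896764, plus strand): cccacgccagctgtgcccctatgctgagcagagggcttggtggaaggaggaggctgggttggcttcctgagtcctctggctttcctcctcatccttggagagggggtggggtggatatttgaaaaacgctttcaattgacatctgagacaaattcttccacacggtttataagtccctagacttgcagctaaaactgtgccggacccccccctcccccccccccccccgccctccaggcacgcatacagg
At Tbx20, 224 of the 250 bases lay in a peak in all 7 libraries, and at Tbx18 157 did. At Tbx1 no base did, and no base was covered in more than 3 libraries. At the downstream start site of Tbx4 no base was covered in more than 2 libraries. GC content was 68.8% at Tbx20 and 67.2% at Tbx1, beside a median of 52.4% over all RefSeq promoters.

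Distal regions with a peak in all 7 libraries are shown for the genes on which the comparison turns. The sequences are 300 bases of the plus strand around the centre of each region, and capitals again mark bases inside a peak in all 7 libraries.
Tbx18, upstream region (chr9:87740708-87741007): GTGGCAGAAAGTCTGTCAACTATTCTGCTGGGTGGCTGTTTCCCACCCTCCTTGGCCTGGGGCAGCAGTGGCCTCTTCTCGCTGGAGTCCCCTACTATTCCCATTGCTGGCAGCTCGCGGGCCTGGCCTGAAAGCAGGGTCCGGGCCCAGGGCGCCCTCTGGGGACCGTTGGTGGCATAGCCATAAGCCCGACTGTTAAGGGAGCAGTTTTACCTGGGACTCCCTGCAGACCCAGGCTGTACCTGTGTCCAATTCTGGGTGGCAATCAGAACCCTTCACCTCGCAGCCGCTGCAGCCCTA
Tbx5, downstream region (chr5:119894703-119895002): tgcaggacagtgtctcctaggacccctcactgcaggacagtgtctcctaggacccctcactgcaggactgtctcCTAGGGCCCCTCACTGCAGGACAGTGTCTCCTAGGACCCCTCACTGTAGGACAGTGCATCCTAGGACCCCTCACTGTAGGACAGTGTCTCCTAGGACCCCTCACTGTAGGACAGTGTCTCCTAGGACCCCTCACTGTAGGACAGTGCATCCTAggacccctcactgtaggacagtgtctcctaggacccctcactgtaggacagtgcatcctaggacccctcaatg
Tbx5, intronic region (chr5:119845068-119845367): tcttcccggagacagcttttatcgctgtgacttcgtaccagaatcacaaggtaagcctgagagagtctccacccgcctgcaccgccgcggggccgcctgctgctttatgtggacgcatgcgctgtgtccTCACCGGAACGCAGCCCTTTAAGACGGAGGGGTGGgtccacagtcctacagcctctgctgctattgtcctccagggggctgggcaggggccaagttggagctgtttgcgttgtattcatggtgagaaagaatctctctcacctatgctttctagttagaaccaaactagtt
Tbx1 window, intron 2 of Gnb1l (chr16:18533090-18533389): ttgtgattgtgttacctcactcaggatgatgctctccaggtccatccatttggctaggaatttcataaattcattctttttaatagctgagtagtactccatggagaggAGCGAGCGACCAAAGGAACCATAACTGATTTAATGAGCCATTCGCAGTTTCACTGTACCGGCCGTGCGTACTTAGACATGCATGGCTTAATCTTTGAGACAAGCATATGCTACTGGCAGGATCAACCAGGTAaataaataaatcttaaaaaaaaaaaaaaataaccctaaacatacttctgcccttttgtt
All 300 bases of the Tbx18 region lay in a peak in every library, compared with 153 at the downstream region of Tbx5, 35 at its intronic region and 132 in the intron of Gnb1l. Core motifs of 7 factor families were searched on both strands of these sequences: GGTGTGA for T-box proteins, AGATAA for Gata factors, GGAATG for Tead factors, TGACAG for Meis proteins, TGATTNA for pairs of Pbx and Hox proteins, TNAAGTG for Nkx2-5 and TGTTTAC for forkhead factors. The Tbx18 region held TGACAG from base 13 to 18 on the minus strand, a string present in 21.7% of all 210347 regions. The Gnb1l intron held TGATTNA from base 135 to 141, present in 9.06% of all regions. This string lies inside the capitals, and whether that stretch has copies elsewhere in the genome was not tested. None of the 7 strings was found in the other 2 distal sequences or in the 4 promoters. Over all RefSeq promoter windows of this length, GGTGTGA is present in 3.33% and TGACAG in 15.9%.

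The promoters of the 7 genes ranged from strong peaks at Tbx20 and Tbx3 to weak or missing ones at Tbx1 and Tbx5. A promoter window reached from 1000 bp before to 100 bp after a start site, and the value of a promoter is the fold enrichment of its strongest peak, the ratio of tag pileup to the local background that the authors' peak caller gave. A promoter peak with q of 0.01 or less was found in all 7 libraries at Tbx2, Tbx3, Tbx18 and Tbx20, in 6 libraries at Tbx4 and in 1 library each at Tbx1 and Tbx5. Of 21000 genes, 53.1% had such a peak in all 7 libraries, and 18.2% had no deposited promoter peak in any.

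Tbx20, which acts in the differentiating heart, had the highest-ranked promoter. Its fold enrichment was 9.35 and 7.39 in GFP+ cells, 7.12 and 5.23 in Tomato+ cells, 4.21 and 8.01 in GFP- cells and 5.07 in Tomato- cells. Both GFP+ values lay above both Tomato+ values, and a GFP- library lay between the GFP+ values. The median rank was in the top 3.99% of a library's peaks. The limma estimate for GFP+ over Tomato+ cells was 0.45 on the log2 scale (SE 0.293, adjusted p = 0.707).

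Tbx3, a repressor that acts in the conduction system, had a promoter as strong and less variable. Fold enrichment was 6.69 and 5.84 in GFP+, 6.92 and 7.13 in Tomato+, 5.22 and 7.70 in GFP- and 6.86 in Tomato- cells, with a median rank in the top 4.95%. The GFP+ values were both under the Tomato+ values by less than the spread of the GFP- libraries (limma log2 difference -0.17, SE 0.243, adjusted p = 0.898). The promoter of Tbx2, its close relative, was weaker, with 2.72 and 3.11 in GFP+, 4.20 and 2.91 in Tomato+, 2.92 and 3.08 in GFP- and 2.66 in Tomato- cells, and the GFP+ and Tomato+ values overlapped (limma log2 difference -0.19, SE 0.253, adjusted p = 0.883).

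Tbx18 had promoter values of 5.0 and 4.09 in GFP+, 3.67 and 5.29 in Tomato+, 3.87 and 3.81 in GFP- and 2.73 in Tomato- cells, again overlapping. Both Tomato+ values lay above the Tomato- value (limma log2 difference 0.70, SE 0.322, unadjusted p = 0.0434, adjusted p = 0.999). That contrast rests on 1 Tomato- library, and 3.99% of all regions had an unadjusted p under 0.05 in it.

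Tbx4, the hindlimb and lung gene, had the widest spread of ranks among the libraries, from the top 5.11% to the top 81.1%. Fold enrichment at its promoters was 2.35 and 3.38 in GFP+, 5.99 and 3.55 in Tomato+, 2.99 and 3.10 in GFP- and 3.48 in Tomato- cells, so both Tomato+ values lay above all others. In GFP+ replicate 3 the peak did not reach q of 0.01. For the region at the upstream start site (chr11:85885749-85886420) the limma log2 difference of GFP+ to Tomato+ cells was -0.71 (SE 0.295, unadjusted p = 0.0279, adjusted p = 0.497). It was -0.30 without Tomato+ replicate 6, -0.43 without GFP+ replicate 3 and -1.12 without Tomato+ replicate 8. With the set of libraries as a term it was also -1.12, since that fit likewise compares GFP+ cells with Tomato+ replicate 6 alone. Within the first set, the GFP+ values of 2.35 and 3.38 stood against 5.99 in Tomato+ replicate 6.

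The promoters of Tbx1 and Tbx5, the genes of the anterior and of the posterior SHF, were the least often listed with a strong peak. At Tbx1 the strongest promoter peak had a fold enrichment of 2.56 and 1.95 in GFP+, 2.21 and 2.28 in Tomato+, 2.63 in GFP- replicate 1 and 2.28 in Tomato- cells, and GFP- replicate 2 had no promoter peak. At Tbx5 a promoter peak was listed with 2.78 in GFP+ replicate 3, 2.97 in GFP- replicate 1 and 3.36 in GFP- replicate 2, and was missing in the 4 remaining libraries, among them both Tomato+ libraries and GFP+ replicate 4. By fold enrichment, the median rank of the Tbx1 peak was in the top 80.6% of a library, near the bottom of the lists. Ranked by p-value, it was in the top 54.3%. A site with no listed peak missed the caller's limit, which does not show that the site was closed. In bulk libraries, fewer cells with an open site and less opening per cell cannot be told apart.

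The difference between the promoters of Tbx5 and Tbx1 could be computed in 2 libraries. It was 0.12 on the log2 scale of fold enrichment in GFP+ replicate 3 and 0.17 in GFP- replicate 1, whereas on the log2 scale of pileup it was -0.42 and -0.66, on the other side. With a promoter of 500 bp on either side of the start site, Tbx5 had a peak in 5 libraries, with 3.14 in GFP+ replicate 3, 3.73 in Tomato+ replicate 6, 2.97 and 3.36 in GFP- and 2.36 in Tomato- cells, and in 3 of them q was 0.01 or less. The difference was then 0.29 in GFP+ replicate 3, 0.76 in Tomato+ replicate 6, 0.17 in GFP- replicate 1 and -0.02 in Tomato- cells, and on the log2 scale of pileup -0.19, -0.58, -0.66 and -0.87. With 1 library in each of the sorted populations, no test between them was possible. For the same reason the promoters of other genes could not be ranked by likeness to either.

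**Figure D1:**
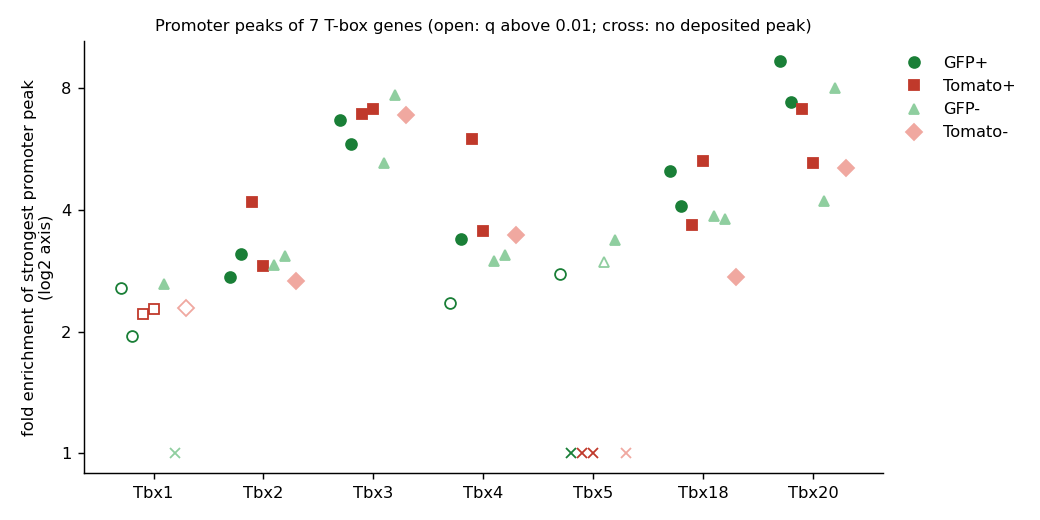
Fold enrichment (log2 axis) of the strongest promoter peak of each gene, one symbol per library and one colour per population. Filled symbols have q of 0.01 or less, open symbols a higher q, and crosses at the base mark libraries with no deposited promoter peak. Tbx20 and Tbx3 reach the highest values, 9.35 and 7.70, while Tbx1 stays at or under 2.63 and Tbx5 has a promoter peak in 3 libraries.

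Tbx1 and Tbx5 also differed in the DNA around them. The Tbx1 window (chr16:18530979-18640671) is gene-dense and takes in Gnb1l, Gp1bb and Septin5. It held 28.4 peaks per 100 kb on average over the 7 libraries, more than 95.5% of 21000 genes, whereas the Tbx5 window (chr5:119746514-119935220) held 17.3, more than 58.0% of genes. The background that the peak caller used at the peaks had a median of 1.89 to 2.62 times the genome-wide rate in the Tbx1 window and of 1.0 to 1.09 times at Tbx5. A peak of the same pileup therefore has a lower fold enrichment in the Tbx1 window than at Tbx5.

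Counts of peaks in these windows lay on opposite sides in the GFP+ and Tomato+ libraries. The Tbx1 window held 26 and 29 peaks in GFP+ cells and 37 and 33 in Tomato+ cells, with 29 and 25 in GFP- and 39 in Tomato- cells. The Tbx5 window held 49 and 35 peaks in GFP+, 26 and 28 in Tomato+, 22 and 37 in GFP- and 32 in Tomato- cells. Both GFP+ counts were thus under both Tomato+ counts at Tbx1, as at 5.85% of genes, and above them at Tbx5, as at 15.1% of genes. Within the first set of libraries the counts of 26 and 29 stood against 37 at Tbx1, and those of 49 and 35 against 26 at Tbx5.

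Scaled to the length of the lists, the Tbx1 window had 8.93 and 13.9 peaks per 100000 in GFP+ and 14.9 and 15.9 in Tomato+ cells, and still did not overlap, as at 15.3% of genes. The Tbx5 window had 16.8 in both GFP+ libraries and 10.5 and 13.5 in the Tomato+ libraries, and did not overlap either, as at 10.4% of genes. The log2 ratio of the scaled GFP+ to Tomato+ counts was -0.43 at Tbx1 and 0.49 at Tbx5, at percentiles 10.7 and 92.0 of the 20686 genes with a ratio, whose median was -0.04. The sort-negative libraries had 15.4 and 10.8 in GFP- and 19.2 in Tomato- cells at Tbx1, so a GFP- library lay among the Tomato+ values. At Tbx5 they had 11.7 and 16.0 in GFP- and 15.8 in Tomato- cells, of which the Tomato- value and a GFP- value exceeded both Tomato+ values.

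Among the stronger peaks the populations separated at Tbx5 and overlapped at Tbx1. With q of 0.01 or less the Tbx5 window held 9 and 10 peaks in GFP+, 6 and 5 in Tomato+, 9 and 7 in GFP- and 7 in Tomato- cells. Both GFP+ counts were above both Tomato+ counts, as at 13.3% of genes (14.5% after scaling to the lists), with a log2 ratio of 0.71 at percentile 93.0. At Tbx1 the counts were 8 and 12 in GFP+, 13 and 7 in Tomato+, 9 and 5 in GFP- and 9 in Tomato- cells, and the populations overlapped.

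The contrast of both genes was tested as the density of peaks with q of 0.01 or less at Tbx5 minus that at Tbx1. Per 100 kb this difference was -2.52 and -5.64 in GFP+ cells and -8.67 and -3.73 in Tomato+ cells. The GFP+ mean exceeded the Tomato+ mean by 2.12 peaks per 100 kb, and the groups overlapped (two-sided exact permutation test, p = 0.6667). For all deposited peaks the difference was 2.26 and -7.89 in GFP+ and -19.9 and -15.2 in Tomato+ cells, which did not overlap, and the GFP+ mean was higher by 14.8 (exact permutation p = 0.3333). With 2 libraries against 2, p = 0.3333 is the smallest value this exact test can give, so no contrast of these groups could pass 0.05. Without Tomato+ replicate 6 the value for peaks with q of 0.01 or less was -0.35, on the other side.

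**Figure D2:**
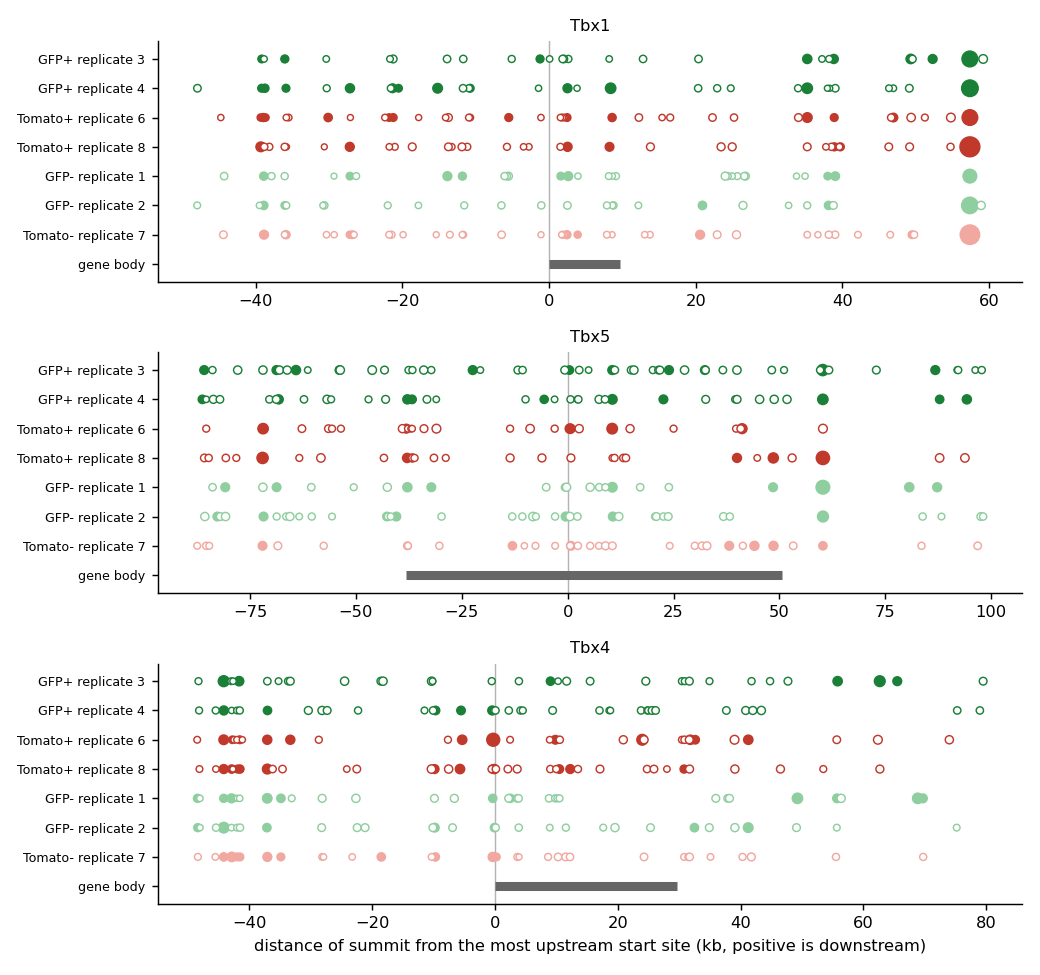
Peaks of each library around Tbx1, Tbx5 and Tbx4 by distance of the summit from the most upstream curated start site (kb, positive downstream), with the area of a symbol growing with fold enrichment and filled symbols for q of 0.01 or less. The grey bar is the annotated gene body. The strong site at the right of the Tbx1 row, in Gnb1l, is present in all 7 libraries, and most Tbx5 peaks are small and in few libraries.

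The Tbx5 locus had the lowest share of sites common to all libraries. Peaks with q of 0.01 or less in any library were merged into 210347 regions, of which 16.2% had a deposited peak in all 7 libraries and 35.4% in 1. At Tbx5, 2 of 34 regions (5.88%) had a peak in all 7 libraries and 15 (44.1%) in 1. At Tbx1, 6 of 28 regions (21.4%) had one in all 7 and 7 (25.0%) in 1. At Tbx18, 5 of 10 regions were found in all 7. Over all 7 genes the count was 24 of 142 regions, or 16.9%, close to the share of all regions.

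The 2 shared regions of Tbx5 were the intronic and the downstream sequences given above. The downstream sequence is a tandem repeat, with nearly the same short unit throughout the printed bases. What the repeat adds to the peak values there was not tested. The downstream region lies 60189 bp from the start site, beyond the end of the gene body, and had a fold enrichment of 4.82 and 4.25 in GFP+, 3.29 and 6.23 in Tomato+, 6.54 and 4.61 in GFP- and 3.02 in Tomato- cells. The intronic region, 10554 bp downstream of the start site, had 3.33 and 3.75 in GFP+, 4.38 and 2.11 in Tomato+, 3.78 and 3.30 in GFP- and 2.66 in Tomato- cells. In both, the Tomato+ values lay on either side of both GFP+ values (limma adjusted p = 1.0 and 0.897, with SE 0.303 and 0.309 on the log2 scale). An upstream region at -68774 bp (chr5:119765795-119765983, intergenic) had a peak in both GFP+ libraries (3.31 and 2.75) and both GFP- libraries (3.23 and 2.36) and in none of the Tomato line. Further upstream, at -71974 bp, 6 libraries had a peak, with 4.27 and 4.81 in Tomato+ cells, 3.01 in GFP+ replicate 3 and none in GFP+ replicate 4. The first of these sites was listed only in the Hoxb1-GFP line, and the second was stronger in both Tomato+ libraries than in the others.

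In the Tbx1 window the strongest site was the region in intron 2 of Gnb1l (chr16:18533127-18533352), the neighbouring gene downstream of Tbx1. It had 8.13 and 8.76 in GFP+, 8.02 and 11.6 in Tomato+, 6.54 and 8.64 in GFP- and 11.2 in Tomato- cells, and the populations overlapped (limma log2 difference -0.19, SE 0.225, adjusted p = 0.862). It lies 53730 bp from the nearest curated start site of Tbx1. Whether its sequence has copies elsewhere in the genome, whose reads could be placed at this site, was not tested. Its values can therefore not be read as opening of this locus alone. Inside Tbx1, a region over one of its exons (chr16:18587987-18588349) had 2.41 and 3.37 in GFP+, 2.67 and 3.43 in Tomato+, 3.31 and 2.6 in GFP- and 2.87 in Tomato- cells. The promoter region at 160 bp before a start site (chr16:18589007-18589112), which lies in the Tbx1 sequence given above, had a peak in both Tomato+ libraries (2.21 and 2.28), in GFP- replicate 1 (2.63) and in Tomato- cells (1.85), and in neither GFP+ library. Only the GFP- peak had q of 0.01 or less.

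Tbx18 had a cluster of upstream regions in which every library listed a peak. The 3 neighbouring regions lie -8471, -9115 and -9597 bp from its start site and are intergenic. The farthest (chr9:87740637-87741078) was the strongest distal site of the gene, with 6.79 and 8.30 in GFP+, 4.07 and 5.24 in Tomato+, 4.44 and 5.90 in GFP- and 5.36 in Tomato- cells. Both GFP+ values lay above all 5 other libraries. The limma log2 difference of GFP+ to Tomato+ was 0.70 (SE 0.257, unadjusted p = 0.0146), and with an adjusted p of 0.438 it did not pass the test. With the set of libraries as a term, which leaves Tomato+ replicate 6 as the comparison, it was 0.85. Within the first set 6.79 and 8.30 stood against 4.07. The region at -9115 bp had 3.75 and 4.02 in GFP+, 3.73 and 2.96 in Tomato+, 2.74 and 2.68 in GFP- and 2.96 in Tomato- cells. That at -8471 bp had 2.88 and 2.99 in GFP+, 3.71 and 2.84 in Tomato+, 3.97 and 2.36 in GFP- and 3.21 in Tomato- cells. Each of these regions reached q of 0.01 or less in 4 of the 7 libraries, and the farthest did so in all 7. The Tbx18 window held 17 and 14 peaks in GFP+ cells, more than the 13 and 12 of Tomato+ cells, with 13 and 14 in GFP- and 10 in Tomato- cells. Such counts, with both GFP+ libraries above both Tomato+ libraries, were found at 15.1% of genes.

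Tbx20 had few peaks, between 7 and 17 per library in a window of 153492 bp. Beside the promoter, a region at -6723 bp (chr9:24780569-24781484) had a peak with q of 0.01 or less in all 7 libraries, with 3.55 and 3.02 in GFP+, 4.41 and 3.58 in Tomato+, 4.27 and 4.03 in GFP- and 3.99 in Tomato- cells. Both GFP+ values were the lowest of the 7 (limma log2 difference -0.28, SE 0.257, adjusted p = 0.808), the reverse of the order at its promoter. The strongest distal site of the window was the promoter of the neighbouring gene Dpy19l2 (chr9:24695708-24696739).

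At Tbx3 the strongest distal region covered an exon of the gene itself (chr5:119680350-119681107), with 3.89 and 3.49 in GFP+, 3.22 and 3.44 in Tomato+, 2.98 and 3.38 in GFP- and 3.02 in Tomato- cells. Both GFP+ values lay above the other 5, with a limma log2 difference of 0.15 (SE 0.239, adjusted p = 0.915). The Tbx3 window held 30 peaks in each GFP+ library, 27 and 23 in Tomato+, 21 and 28 in GFP- and 17 in Tomato- cells, so both GFP+ counts exceeded both Tomato+ counts, as at 15.1% of genes, and they overlapped once scaled to the lists. For Tbx2 and Tbx4, which are neighbours on chromosome 11 and whose windows share 127 peaks, it was the same region just after the end of Tbx2 (chr11:85841998-85842277), with 4.60 and 3.42 in GFP+ and 3.78 and 3.38 in Tomato+ cells.

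**Figure D3:**
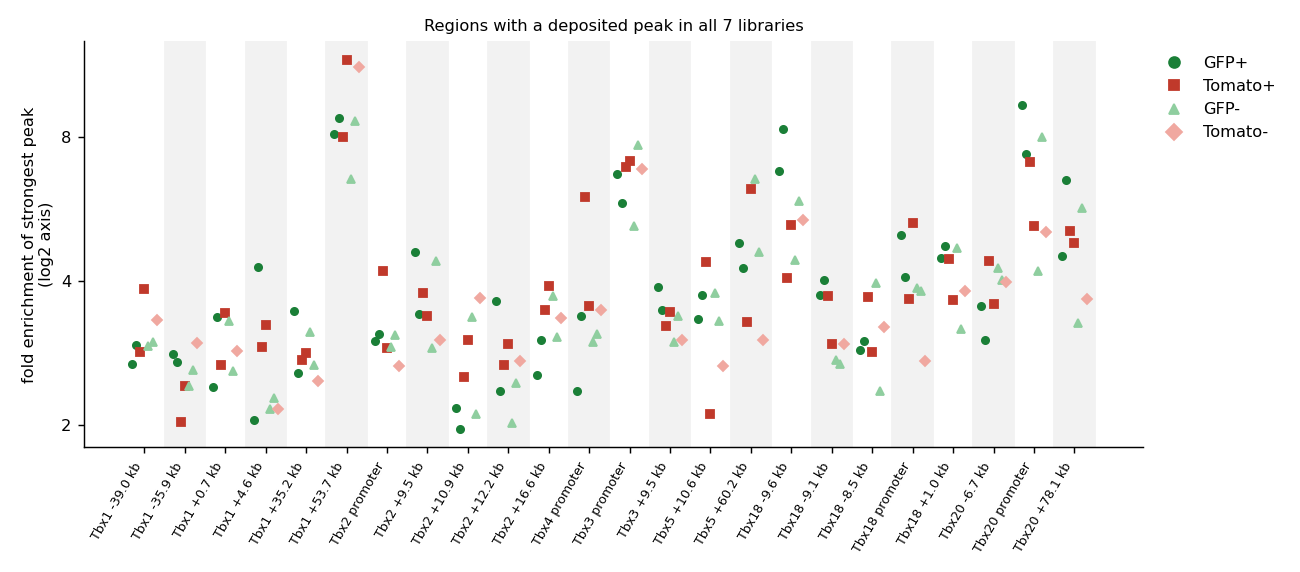
Fold enrichment (log2 axis) of the 24 regions at the 7 genes with a deposited peak in all 7 libraries, named by gene and distance from the nearest start site, one symbol per library. The Tbx18 region farthest upstream has both GFP+ symbols (6.79 and 8.30) above all others, and the Tbx4 promoter has both Tomato+ symbols (5.99 and 3.55) above the rest.

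Fewer strong peaks were listed around Tbx2 and Tbx4 in GFP+ cells than in Tomato+ cells. With q of 0.01 or less the Tbx4 window held 6 and 5 peaks in GFP+, 12 and 12 in Tomato+, 11 and 7 in GFP- and 10 in Tomato- cells. The Tbx2 window held 8 and 7 in GFP+, 11 and 11 in Tomato+, 9 and 7 in GFP- and 11 in Tomato- cells. Both GFP+ counts were under both Tomato+ counts in each window, as at 8.07% of genes (16.2% after scaling to the lists). The log2 ratio of the scaled counts was -1.21 at Tbx4, at percentile 1.08 of the 19700 genes with a ratio, and -0.64 at Tbx2, at percentile 8.07. The 2 windows share peaks and are not independent. Within the first set of libraries the Tbx4 counts of 6 and 5 stood against 12. With the sort, the Tbx4 count was lower in both GFP+ libraries than in both GFP- libraries and higher in both Tomato+ libraries than in the Tomato- library. Counts apart in opposite ways like this, in either order, were found at 6.4% of genes for peaks with q of 0.01 or less and at 5.25% for deposited peaks. For all deposited peaks the Tbx4 counts overlapped, with 32 and 36 in GFP+ and 30 and 37 in Tomato+ cells.

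At Tbx4, 4 of 30 regions held a peak of any q in the Tomato+ pair of libraries and none in the GFP+ pair. This holds for 2.69% of all regions, and the reverse pattern, in favour of GFP+ cells, for 3.28%. At chr11:85896114-85896501 and chr11:85896812-85896923, on both sides of the downstream start site, the Tomato+ values were 3.23 and 2.3 and then 2.46 and 3.17, and GFP- replicate 1 also had a peak at each. At chr11:85917057-85917212 and chr11:85918158-85918658, just after the gene, they were 2.50 and 2.88 and then 3.62 and 2.82, and Tomato- cells also had a peak at each. Over the 7 genes, 4 regions were of the GFP+ kind (2 at Tbx20, 1 each at Tbx3 and Tbx5) and 6 of the Tomato+ kind (4 at Tbx4, 1 each at Tbx1 and Tbx3), of 142 regions. This lenient comparison was added after the values were seen.

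**Figure D4:**
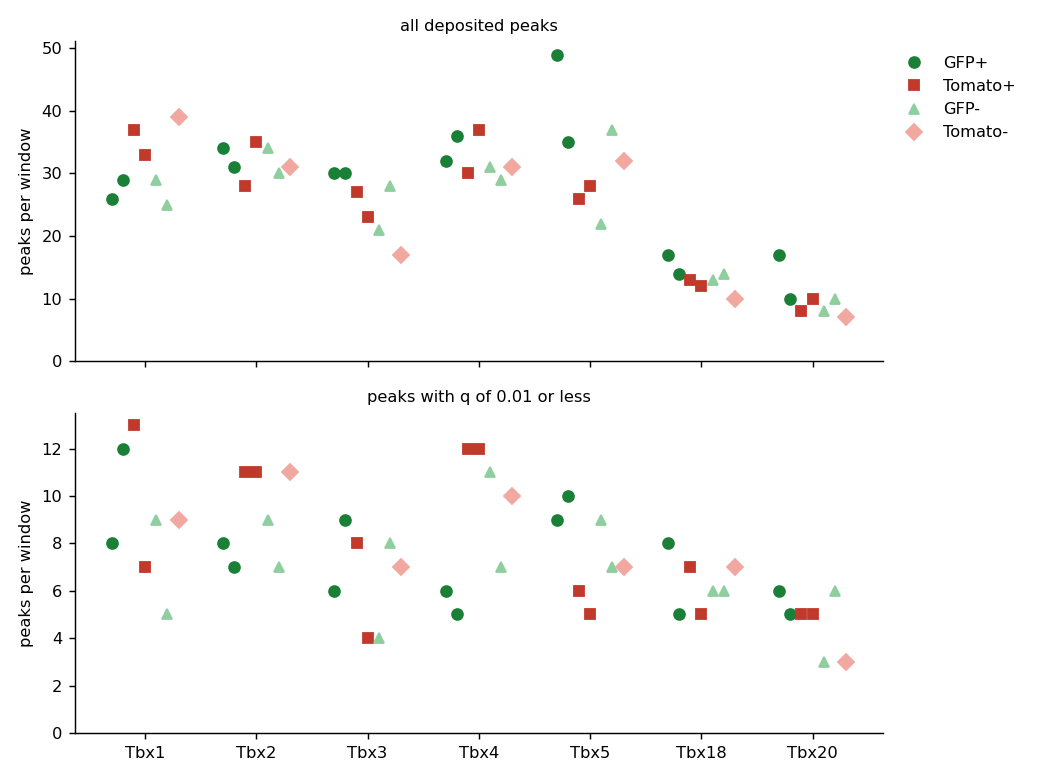
Number of deposited peaks (upper panel) and of peaks with q of 0.01 or less (lower panel) in each window, one symbol per library and one colour per population. GFP+ and Tomato+ symbols separate at Tbx1, Tbx3, Tbx5 and Tbx18 in the upper panel and at Tbx2, Tbx4 and Tbx5 in the lower one. Over all genes, both GFP+ counts of deposited peaks lie above both Tomato+ counts at 15.1% and under them at 5.85%. For peaks with q of 0.01 or less these shares are 13.3% and 8.07%. The deposited counts at Tbx3 overlap once scaled to the lists.

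**Figure D5:**
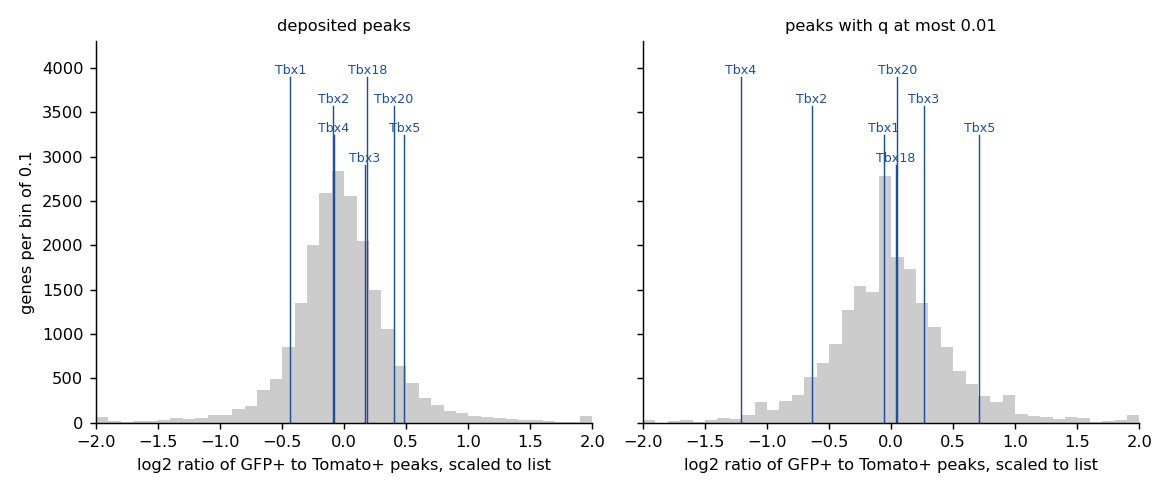
Log2 ratio of GFP+ to Tomato+ peak counts, each scaled to the length of its list, for all genes with a ratio, 20686 for deposited peaks and 19700 for peaks with q of 0.01 or less (grey bars, genes per bin of 0.1, with values beyond the axis in the end bins) and for the 7 T-box genes (blue lines). Tbx4 stands at -1.21 and Tbx5 at 0.71 for peaks with q of 0.01 or less, and Tbx1 at -0.43 for all deposited peaks.

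No region at the 7 genes was strictly specific to a population. Such a region has a peak of q 0.01 or less in the pair of libraries of a population and no peak of any q in the other pair, and it was found 0 times for GFP+ and 0 times for Tomato+ cells at the 7 genes, beside 0.518% and 0.397% of all 210347 regions. Regions with a peak in all 4 sorted libraries and in none of the 3 sort-negative libraries were found 4 times among the 142, beside 0.249% of all regions, and the reverse 0 times, beside 0.325%. The 4 lay at Tbx3 (41802 bp downstream of a start site, chr5:119712911-119713160), Tbx5 (at -36860 bp, chr5:119797662-119797944), Tbx18 (48779 bp downstream, chr9:87682430-87682533) and Tbx2 (at -32616 bp, chr11:85799800-85800199, in an intron of Bcas3). At the Tbx3 site fold enrichment was 2.11 and 3.85 in GFP+ and 3.89 and 3.38 in Tomato+ cells. At the Tbx5 site it was 2.33 and 3.15 in GFP+ and 2.06 and 2.73 in Tomato+ cells, and only 1 of the 4 peaks had q of 0.01 or less. All 3 sort-negative libraries and Tomato+ replicate 8 form the second set of libraries. Set and sort can therefore barely be told apart for these 4 regions.

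The 24 regions with a peak in all 7 libraries were tested with limma on log2 fold enrichment, fitted on all 34032 such regions. None was called between GFP+ and Tomato+ cells, where 0.00294% of all regions (1 region) passed an adjusted p of 0.05, and 2 had an unadjusted p under 0.05, the Tbx18 region at -9597 bp and the Tbx4 promoter, beside 8.84% of all regions. None was called between GFP+ and GFP- cells (0 with an unadjusted p under 0.05, beside 6.38%), between Tomato+ and Tomato- cells (1, beside 3.99%), or for the difference between these sort effects (0, beside 4.5%). With the set of libraries as a term, a fit added after the values were seen, 0 of the 24 were called in each of these 4 comparisons, and 14 of all regions were called between GFP+ and Tomato+ cells. For GFP+ against Tomato+ cells, that fit compares GFP+ cells with Tomato+ replicate 6 alone, as does the fit without replicate 8. It is no separate check of the set. In simulated data of this size, 100 regions were changed by each amount and the spreads were shuffled among the regions. Of changes of 1 on the log2 scale 0% were recovered, and of changes of 2 53%. A change of 1 was thus beyond the reach of this test in that setting. Recovery with more changed regions, or with each region's own spread, was not tested. The median log2 difference between GFP+ and Tomato+ cells was 0.02 over the 24 regions and -0.01 over all regions.

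Other genes of the pathway were counted from 2 lists. Of 10 other T-box genes, 1 (Mga, a broadly expressed regulator) had a promoter peak with q of 0.01 or less in all 7 libraries, 6 had one in at least 1 library, and Tbx22 had no promoter peak at any q. Of 27 partners and targets, among them Isl1, Gata4, Nkx2-5 and Hand2, all 27 had one in at least 1 library and 13 in all 7. Over 21000 genes, 53.1% had one in all 7. In the limma test of GFP+ against Tomato+ cells, 22 of the 27 and 2 of the 10 had a promoter region in the fit. Of these, 0 were called in either direction, beside 0.00294% of all regions. An unadjusted p under 0.05 was found for 2 of the 22 and 1 of the 2, beside 8.84% of all regions. The partners were Isl1, the marker of SHF progenitors, with a log2 difference of 0.56 (SE 0.248, adjusted p = 0.531), and the signal Wnt2, with 0.59 (SE 0.265, adjusted p = 0.53).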

How the data were processed

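Sorted cells of the SHF region were profiled by ATAC-seq in 7 libraries. Per the methods, the authors mapped reads to GRCm38 with SNAP, dropped duplicates and blacklisted regions, and called peaks in each library separately with MACS (2.1.1 in the methods), with no control library and a p-value limit of 0.01 in the header kept with Tomato+ replicate 6, where tags were shifted by 37 bp and extended to 73 bp. The deposited pileup is a coverage signal at the summit and grows with depth. The deposited fold enrichment is the ratio of this pileup to the background around the site. Depth also raises the -log10 q-value and the -log10 p-value, both as deposited. Read counts over shared regions were not at hand, so DiffBind was not repeated, and tags per library were computed from the background rate in each list.

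Summits of 1 peak were collapsed. Start sites are those of curated RefSeq transcripts (GRCm38.p6), a promoter is 1000 bp before to 100 bp after one, and gene body ends are those of the RefSeq gene record, which for Tbx5 begins before the curated start site. Peaks with q of 0.01 or less were merged into regions at 1 bp of overlap, and a peak over several regions counted in each. Ranks are by fold enrichment within a library. Regions with a peak in all 7 libraries were tested with limma 3.58.1 (R 4.3.3) on log2 fold enrichment centred on each library's median, with Benjamini-Hochberg adjustment over all regions, and the script was tested on simulated data. No pair of libraries was a duplicate, since pairs shared at most 452 identical peaks. Libraries were put in 1 set where pairs shared 100 or more. Groups came from the sample titles. Values of a group are named by replicate in the order 3, 4 (GFP+), 6, 8 (Tomato+) and 1, 2 (GFP-). The genes, lists, motifs and tests were chosen with earlier results of these data known. The text names all 7 genes, their promoter peaks, the strongest distal region of each, and every called or exclusive region; the other regions in the text were chosen after their values were seen. Alternatives changed the measure, scaling, filter, thresholds, window and libraries.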

Additional observations from a re-analysis of the deposited data

Results flagged for a closer look

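The count of peaks with q of 0.01 or less in the Tbx4 window moved opposite ways with the sort in the 2 lines. It was 6 and 5 in GFP+ against 11 and 7 in GFP- cells, lower in both sorted libraries, and 12 and 12 in Tomato+ against 10 in Tomato- cells, higher in both. The sort differences in mean counts were -3.5 peaks in the Hoxb1-GFP line and 2 peaks in the Mef2c-Cre;RosatdT line, and they differed by -5.5 peaks. This difference between the lines was not tested, and Tomato- cells had 1 library. Of the 14 window counts (7 genes, all deposited peaks and peaks with q of 0.01 or less) it was the only one in which every sorted library lay beyond the sort-negative libraries of its line, in opposite directions, a pattern found at 6.4% of genes for these peaks. Differences of means had opposite signs in 5 other counts. The GFP+ and GFP- libraries also belong to different sets by their identical peaks, so sort and set cannot be told apart in that line.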

How the results depend on the processing

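No paired analysis was possible because the replicate numbers are adapter numbers and no number is shared between groups. In the 4 region tests, 0 regions at the 7 genes were called in the main analysis and in all 49 alternatives. Over all regions, GFP+ against Tomato+ cells gave 1 call, and 81 with pileup scaled to tags, 4 with quantile normalization, 17 without Tomato+ replicate 8, 14 with the set of libraries as a term (added after seeing the data), 2 and 3 without a GFP- library, 3 without Tomato+ replicate 6, and 0 without either GFP+ library, with peaks in at least 4 libraries and with the GFP+ and Tomato+ libraries alone. Regions exclusive to GFP+ cells at the 7 genes numbered 0, and 1 where only a peak with q of 0.01 or less counted as presence in the other population, with a range of 0 to 15 on leaving out a library (without GFP+ replicate 4, 9.98% of all regions; without GFP+ replicate 3, 10 regions and 8.76%). Regions exclusive to Tomato+ cells numbered 0, and 3 under that rule, which holds for 1.5% and 1.23% of all regions, with a range of 1 to 9 (9 without Tomato+ replicate 8, 8.86% of all regions; 4 without replicate 6, 6.77%). With 1 library left in a population, presence rests on that library, which is what raises the count. Counting peaks of any q, an alternative added after seeing the data, gave 4 and 6. Pairs of gene and library with a strong promoter peak numbered 36, and 39 with a promoter of 500 bp on either side of the start site. Ranked by p-value, the promoter of Tbx1 moved from the top 80.6% to 54.3% and that of Tbx2 from 41.1% to 19.4%. The difference of Tbx5 minus Tbx1 between GFP+ and Tomato+ cells, 2.12 peaks per 100 kb, turned to -1.90 with peaks of q 0.0001 or less and, on leaving out a library, ranged from -0.35 (without Tomato+ replicate 6) to 4.59; the cause was not tested. It kept its direction with 20 kb windows (0.777), all deposited peaks (14.8) and, added after seeing the data, after scaling to the lists (5.76, and 8.81 for all deposited peaks, both p = 0.3333 by the exact permutation test). The promoter difference of Tbx5 and Tbx1 could be computed in 4 libraries with a promoter of 500 bp on either side, 1 GFP+ and 1 Tomato+ among them, which allows no test, and changed its sign with pileup in GFP+ replicate 3, Tomato+ replicate 6 and GFP- replicate 1. Depth limits what is listed: a site that missed the peak caller's limit in a library has no value there.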
